A study of Sus scrofa with 6 samples.

Results

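The natriuretic peptide family in porcine aortic valve leaflets is described here through NPPA, NPPB, NPPC, NPR1, NPR2 and NPR3, which encode the peptide hormones and their receptors. A probe set, the group of short probes with which an Affymetrix array measures a transcript, was a member if the array annotation or the study's own list of differing probe sets named it for one of these 6 genes. The family had 6 probe sets, for 5 of the genes, among 24123 on the array, which the same sources name for 6853 genes. NPR2 had 2 of them, and no probe set was named for NPR3. The probe set of NPR1 was named only by the study's list, so its difference between the sexes is given as a description. Counts of calls leave it out and cover the other 5, except in the part on how the results depend on the processing.

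The leaflets came from 3 castrated male and 3 female pigs of mixed breed, 5 months old and healthy, with 1 pig on each Affymetrix Porcine Genome Array, and the study asked which genes differ with sex before valve disease begins. The male animals were castrates, which limits them as a model of intact males. Leaflets were taken from the heart at most 5 h after death, the endothelium was scraped off by hand, and total RNA of the whole remaining leaflet was labelled. In such tissue RNA, fewer cells of a type and less RNA per cell cannot be told apart. The values are log2 values, so a difference of 1 is a 2-fold change, and each fold change is male over female.

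Array medians lay between 7.33 and 7.38. Correlations across all probe sets were 0.987 to 0.993 within a sex and 0.972 to 0.987 between the sexes, and 3 Y-linked probe sets matched the labelled sex on 6 of 6 arrays. Collagen and proteoglycan genes of valve interstitial cells, the fibroblast-like cells of the leaflet, were high, with DCN (decorin) at 13.91, 14.12 and 14.12 in males and 14.28, 14.49 and 14.52 in females. None of the 17 measured interstitial and fibroblast markers lay under the 25th percentile on every array.

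Natriuretic peptides are made as larger precursors. NPPA and NPPB encode the precursors of atrial and B-type natriuretic peptide, hormones that heart muscle releases when it is stretched and that lower blood pressure by acting on NPR1. NPPC encodes the precursor of C-type natriuretic peptide, a local signal made by endothelium and growth cartilage that acts on NPR2 and is known to restrain the differentiation of cultured valve interstitial cells toward contractile and bone-like cells. NPR1 and NPR2 are membrane guanylyl cyclases, which turn GTP into the second messenger cGMP, whereas NPR3 mainly takes the peptides up and clears them.

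The ligand genes NPPC and NPPB were higher in males, and the third ligand gene, NPPA, was low in both sexes. NPPC was 2.92-fold and NPPB 3.70-fold higher, and both passed the test with a filter on variable probe sets and not over all probe sets. The receptor gene NPR2 overlapped between the sexes, and NPR1 was 2.72-fold higher in males.

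NPPC had log2 values of 9.45, 9.45 and 8.52 in males and 7.32, 7.93 and 7.54 in females. The sexes did not overlap, and the lowest male lay 0.59 above the highest female. The means were 9.14 ± 0.54 in males and 7.60 ± 0.31 in females (SD, n = 3 each), a log2 fold change of 1.54. On its own array the probe set ranked between the 66th and 78th percentile in males and between the 49th and 57th in females. It therefore moved past the middle of the array's values in males and stayed near it in females.

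NPPB stood at 7.84, 9.13 and 6.85 in males and at 6.21, 6.03 and 5.92 in females. All 3 males were above all 3 females, by at least 0.64, and male 2 was the highest. The means were 7.94 ± 1.14 in males and 6.05 ± 0.15 in females (SD, n = 3 each), a log2 fold change of 1.89. The 3 males were far apart, with 4.86-fold between the highest and the lowest, while the 3 females were close together. The SD among males was above that of 99.8% of probe sets, and the SD among females was at the 43.9th percentile. Places on the array ran between the 43rd and 74th percentile in males and between the 30th and 34th in females.

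NPPA, which in the RefSeq annotation of the pig genome is the neighbour of NPPB, had values of 5.01, 5.09 and 4.86 in males and 5.35, 4.83 and 4.94 in females. All 3 males lay within the range of the females, so the sexes overlapped completely. The log2 fold change was -0.05 (95% interval -0.42 to 0.32, limma over all probe sets). The probe set lay under the 25th percentile of every array, between the 17th and 20th percentile in males and the 18th and 22nd in females. At such a level a difference in a scarce transcript may not be detectable.

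NPR1, the receptor for the products of NPPA and NPPB, had 9.68, 9.48 and 9.89 in males and 8.49, 7.97 and 8.26 in females. The sexes stood 0.99 apart at their nearest, the widest gap in the family. The means were 9.68 ± 0.20 in males and 8.24 ± 0.26 in females (SD, n = 3 each), a log2 fold change of 1.44, and the ranks on the arrays were the 78th to 83rd percentile in males and the 58th to 65th in females. Because the gene's name came from a list of probe sets that differed, nothing rests on this difference.

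NPR2 encodes the receptor for the product of NPPC. Its higher probe set had 10.27, 10.13 and 10.36 in males and 10.32, 10.45 and 10.53 in females, at the 85th to 88th percentile in males and the 87th to 89th in females. The groups overlapped, with a log2 fold change of -0.18 (95% interval -0.44 to 0.08) and an adjusted p of 0.452 (limma over all probe sets). The second probe set, lower on every array, read 6.74, 6.79 and 6.80 in males and 6.78, 6.74 and 6.71 in females. It lay at the 41st or 42nd percentile on each array and differed by 0.03 (95% interval -0.18 to 0.25). The 2 probe sets of this gene stood far apart on the arrays, so places on the array do not rank genes. Both intervals exclude a change of 2-fold in either direction.

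**Figure D1:**
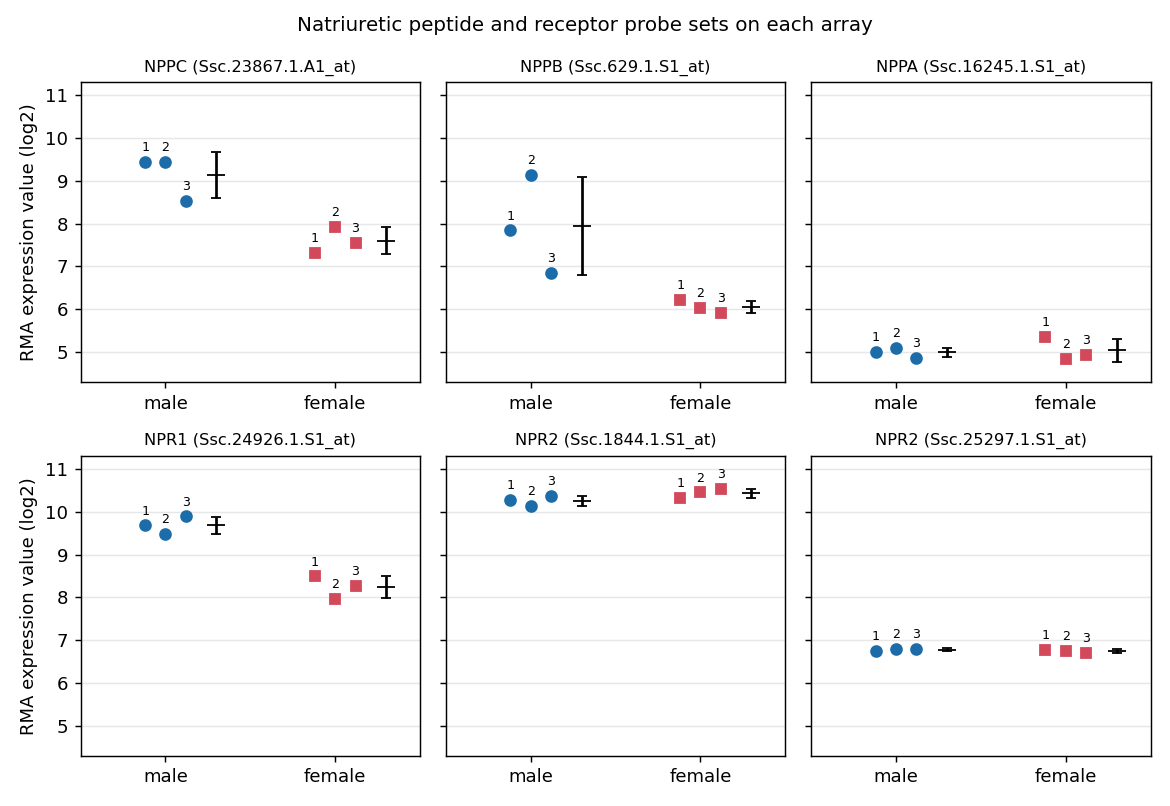
Log2 expression values of the 6 member probe sets, with males (blue circles) left of females (red squares), the animal's number above each point, and the mean with its SD in black (n = 3 each). NPPC, NPPB and NPR1 show 3 males above 3 females, NPPB with the widest male spread, while NPPA and both NPR2 probe sets overlap.

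The sexes were compared in 2 ways with limma, a linear model fitted across many probe sets at once. A call needed a change of at least 2-fold with p, adjusted after Benjamini and Hochberg, under 0.05. The first way kept the 10% of probe sets with the highest coefficient of variation (CV, the SD over the mean of the 6 log2 values), and is named the CV filter here. The study's methods name a filter on the CV but describe it as removing values too unlike between replicates, so keeping the highest CV is a reading of it that rests on the number of probe sets behind the study's adjusted p. When probe sets with a small CV within each sex were kept instead, NPPC and NPPB did not enter the fit. A difference between the sexes raises the CV, so the filter favours probe sets that differ. The second used all 23999 probe sets other than controls.

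With the CV filter, NPPC (adjusted p = 0.0334, SE 0.37, 95% interval 0.74 to 2.35) and NPPB (adjusted p = 0.0468, SE 0.50, 95% interval 0.79 to 2.98) were called higher in males by limma. They were 2 of the 5 probe sets that the array annotation names, and none of the 5 was called lower. NPR1 also passed, which its choice from a list of differing probe sets had fixed. Among all probe sets that the filter kept, 4.6% were called higher and 2.99% lower in males. The probe sets of NPPA and NPR2, with a CV under the 6.50% of the last probe set kept, did not enter this comparison.

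Over all probe sets, NPPC had an adjusted p of 0.0870 (SE 0.28, 95% interval 0.88 to 2.21) and NPPB one of 0.166 (SE 0.51, 95% interval 0.69 to 3.08) in limma. Of the 5 probe sets named by the annotation 0 were called, although 2, NPPC and NPPB, had an unadjusted p under 0.05. Of 6765 annotated genes with 1 probe set each, 742 were higher and 442 lower in males at that unadjusted p. The share of all probe sets called higher in males was 0.167%, and 0.138% were called lower. Without overlap of the sexes, 2 of the 5 were higher in males (background 11.1%), and 0 of 5 were lower (background 11.4%).

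With 1 array left out, the calls of both ligand genes changed, while both stayed higher in males. With the CV filter, NPPC was not called by limma without male 1 (adjusted p = 0.110), male 2 (0.110), female 1 (0.0818) or female 3 (0.0887), and was called without male 3 (0.00941) or female 2 (0.0290). NPPB was called only without male 3 (adjusted p = 0.00530), and not without male 1 (0.0916), male 2 (0.134), female 1 (0.0703), female 2 (0.0631) or female 3 (0.106). Over all probe sets, both genes were called only without male 3, NPPC at an adjusted p of 0.0232 and NPPB at 0.0409. Calls over the whole series moved as well, with 41 to 117 probe sets called higher by the CV filter without 1 array other than male 3, 228 without male 3, and 111 with all 6 arrays. The log2 fold change of NPPC lay between 1.39 and 1.85. The fold of NPPB was 2.45 without male 2, its highest animal, 5.39 without male 3, and 3.53 to 3.91 without any other single animal.

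**Figure D2:**
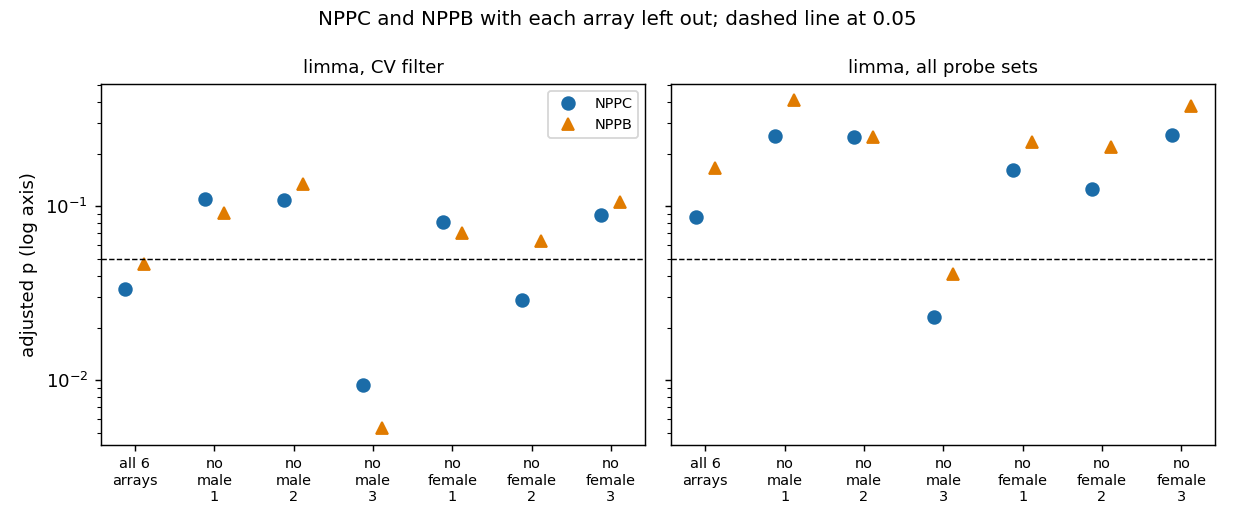
Adjusted p from limma (log axis) for NPPC (circles) and NPPB (triangles) with all 6 arrays and with each array left out, by the CV filter (left) and over all probe sets (right), with a dashed line at 0.05. Both genes reach their lowest values, 0.00941 and 0.00530 with the CV filter, when male 3 is left out.

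NPPC was also set against its receptor gene NPR2 (the higher probe set) by subtracting their log2 values on each array and comparing these differences between the sexes. The sex difference of NPPC exceeded that of NPR2 by 1.73, with the 3 males above the 3 females. The exact permutation test (two-sided) gave p = 0.1, and 0.1 after adjustment over the 3 pairs computed, the smallest value that 3 against 3 allows, so the design cannot place this difference under 0.05. The other 2 pairs set NPPB and NPPC against NPPA and are not read further, because NPPA lay low on every array.

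The 3 genes that stood higher in males did not order the animals alike. Among males, male 3 was the lowest in NPPC and in NPPB but the highest in NPR1. Among females, female 2 was the highest in NPPC and the lowest in NPR1, and NPPB was highest in female 1. The deviation of male 3 from the male mean was -0.62 for NPPC, -1.09 for NPPB and 0.20 for NPR1.

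Markers of endothelium, the cell layer that had been scraped off, also stood higher in males. The study checked the scraping by staining a parallel set of leaflets for von Willebrand factor and reported it as successful. Of 28 measured endothelial markers (39 listed), 22 had a higher mean in males, 5 were called higher with the CV filter and 0 over all probe sets (14 had an unadjusted p under 0.05 in limma), and their median log2 fold change was 0.89. Over all annotated genes, represented in the same way, the median was 0.05, with 58.3% higher in males. Of these 6765 genes, 742 were higher in males at an unadjusted p under 0.05, 44 were called higher with the CV filter and 12 over all probe sets. Linear values summed over the list ranged between 41506 and 86538 in males and between 25763 and 47738 in females. KDR and RAMP3 lay under the 25th percentile on every array by the probe sets that the annotation names. For KDR, CD93, CLEC14A and PODXL the study's list of differing probe sets names 4 further probe sets, which the counts leave out. That of KDR, a receptor for vascular endothelial growth factor, had 9.53, 9.23 and 8.62 in males and 6.07, 7.05 and 7.16 in females. PECAM1, an endothelial adhesion molecule, had 13.69, 13.31 and 12.61 in males and 12.16, 12.28 and 11.83 in females, without overlap. CDH5 (VE-cadherin), with a log2 fold change of 0.90, and VWF (von Willebrand factor), with 0.38, overlapped between the sexes. The 5 called markers were CALCRL, ICAM2, ADGRL4, ENTPD1 and ESAM, with log2 fold changes of 1.42, 1.70, 1.75, 1.88 and 1.59. The study had already reported each of these called genes as differing between the sexes on the same arrays. The endothelial list was chosen with earlier results of these data known. Its calls, counts and median are therefore a description and not an independent finding.

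The mean of the endothelial markers was 10.03, 9.80 and 9.14 in males and 8.73, 9.36 and 8.59 in females, so that female 2 stood above male 3. NPPC shared the lowest male and the highest female with this mean, and was 8.52 in male 3 and 7.93 in female 2. NPR1 was highest in male 3 and lowest in female 2, where the endothelial mean was lowest and highest for the sex, while the order of the remaining animals was shared. NPPB shared male 3 as the lowest male but not the highest male or female. Whether endothelial cells left on the leaflets had a part in the differences of NPPC, NPPB and NPR1 was not tested.

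**Figure D3:**
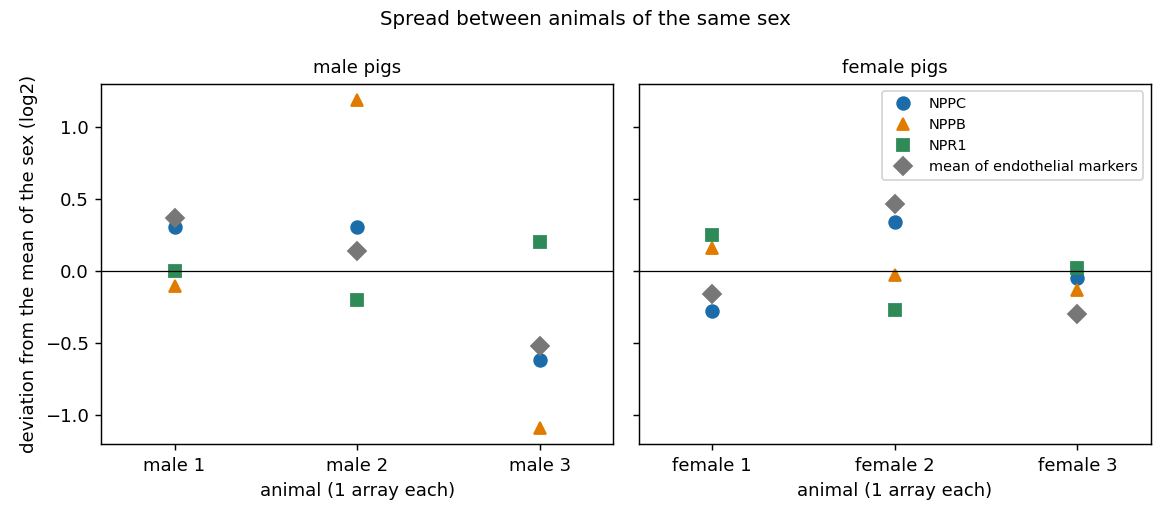
Deviation of each animal from the mean of its sex (log2) for NPPC, NPPB, NPR1 and the mean of 28 endothelial markers, males left and females right, 1 array per animal. Male 3 is at -0.62 for NPPC, -1.09 for NPPB and -0.52 for the endothelial mean, against 0.20 for NPR1.

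Markers of heart muscle, the main source of NPPA and NPPB in the body, did not separate the sexes as a list. Of 21 measured cardiomyocyte markers (31 listed), 7 lay under the 25th percentile on all arrays, among them the sarcomere genes TNNT2, MYL2, TTN and ACTC1. Linear values summed over the list were 9305 to 10424 in males and 10044 to 10547 in females, the list's median log2 fold change was 0.02, and 0 of the 21 probe sets that represent its genes were called by limma in either comparison (PLN alone had an unadjusted p under 0.05). PLN stood higher in males without overlap on both of its probe sets, by 1.32 and 1.77, and the second, lower one was called with the CV filter. SLN and TNNI3, which code for a regulator of the calcium pump and for cardiac troponin I, differed by 0.27 and -0.43. MYH7, the slow myosin heavy chain, had 5.43, 5.58 and 5.60 in males and 5.46, 5.37 and 5.35 in females. The summed cardiomyocyte markers overlapped between the sexes. Whether heart muscle left on the leaflets had a part in the difference of NPPB was not tested.

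The other genes of natriuretic peptide and cGMP signalling were taken from 6 lists with 119 genes, of which the array annotation names 65. Their median log2 fold change was 0.09, with 43 higher and 22 lower in mean, beside the median of 0.05 and the 58.3% over all annotated genes. With the CV filter 1 of the 65 was called, higher in males, and over all probe sets 0 were called by limma, where 12 higher and 4 lower had an unadjusted p under 0.05. At that p, 742 of the 6765 annotated genes were higher and 442 lower. With the CV filter 44 of the 6765 were called higher and 13 lower, and over all probe sets 12 and 3. These counts are the background for each list below. The genes named for each list are those with the smallest p.

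Among 9 measured genes of peptide processing and clearance (18 listed), 3 were higher and 6 lower in mean. The 9 were DPP4, PAM, ANPEP, PCSK7, NPEPPS, FAP, PREP, ECE1 and IDE. ECE1 was counted as lower, at -0.05, while its other probe set was higher in males by 0.93 without overlap (unadjusted p = 0.00315, adjusted p = 0.130 over all probe sets, limma). DPP4, a membrane peptidase that trims B-type natriuretic peptide, was the 1 called with the CV filter. It had 10.80, 9.59 and 8.53 in males and 6.91, 7.19 and 5.28 in females, a 9.04-fold difference (adjusted p = 0.0127 with the CV filter and 0.115 over all probe sets, limma). All 3 males were above all 3 females, with male 3 the lowest male and female 3 the lowest female. PAM, an enzyme that amidates peptide hormones and binds the atrial peptide precursor, had 12.38, 12.54 and 12.72 in males and 12.80, 13.01 and 13.13 in females without overlap (log2 fold change -0.43, adjusted p = 0.195 over all probe sets, limma).

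Of the 9 measured genes listed for cGMP synthesis by other routes, 8 were higher in mean, with a median of 0.17. By limma 0 of the 9 were called in either comparison (0 had an unadjusted p under 0.05). The list also holds genes that do not make cGMP themselves, such as CAV1, HSP90AA1 and HSP90AB1, so the 8 are not a count of cGMP-making genes. For CAV1 the study's list of differing probe sets names a further probe set, which the counts leave out. It was lower in males without overlap, whereas the CAV1 probe sets that the annotation names were higher in mean. NOS3, the endothelial nitric oxide synthase and one of the endothelial markers above, had 11.86, 11.45 and 10.49 in males and 10.40, 11.01 and 9.49 in females, which overlapped (log2 fold change 0.97). GUCY1B1, the beta subunit of the nitric oxide receptor, named GUCY1B3 by the array annotation, differed by 0.80 with female 2 above 2 of the males. Its 2 other probe sets differed by 0.91 and -0.15, so the probe sets did not run one way.

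All 4 measured genes of cGMP breakdown were higher in mean, by a median of 0.15, with 0 called by limma (0 at an unadjusted p under 0.05). PDE5A, the cGMP phosphodiesterase that sildenafil blocks, had 6.81, 6.75 and 6.78 in males and 6.60, 6.62 and 5.88 in females, without overlap, and PDE6D, a prenyl-binding protein first found with the retinal phosphodiesterase, differed by 0.17. Female 3 alone lay far below the others in PDE5A, and a second, low PDE5A probe set overlapped.

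Of 16 cGMP effectors and kinase targets, 11 were higher and 5 lower in mean, with a median of 0.13, 0 called by limma in either comparison and 4 at an unadjusted p under 0.05. PLN, phospholamban, a brake on the calcium pump that cGMP-dependent kinase phosphorylates, had 8.37, 8.63 and 7.42 in males and 6.39, 7.18 and 6.92 in females (log2 fold change 1.32, adjusted p = 0.0606 with the CV filter, limma). A second, lower PLN probe set differed by 1.77 and was called with the CV filter (adjusted p = 0.0458) but not over all probe sets (0.155). RHOA, a small GTPase of contraction, had 12.69, 12.61 and 12.49 in males and 12.30, 12.18 and 12.10 in females, a difference of 0.40 without overlap. RGS5, a brake on G-protein signalling known as a pericyte marker and named here after its values were seen, had the widest difference of the list, 5.88-fold (adjusted p = 0.0517 with the CV filter and 0.204 over all probe sets, limma). It had 9.18, 10.20 and 9.13 in males and 6.86, 8.76 and 5.21 in females, without overlap, with female 2 nearest to the males.

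Of 14 transcription factors known to act on the promoters of NPPA or NPPB in heart muscle, 7 were higher and 7 lower, with a median of 0.01, and 0 were called by limma (3 had an unadjusted p under 0.05). JUN, a subunit of the immediate early factor AP-1, had 12.28, 11.83 and 12.37 in males and 11.59, 10.55 and 10.90 in females without overlap (log2 fold change 1.14, adjusted p = 0.142 over all probe sets, limma). TEAD4, a factor of the Hippo pathway, differed by 0.91 with female 2 above male 3. GATA4 and GATA6, zinc-finger factors of heart muscle, differed by 0.02 and -0.01. Another GATA4 probe set differed by 0.29, with overlap of the sexes.

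Of 13 regulators and partners of NPPC and NPR2, mostly known from growth cartilage, 10 were higher and 3 lower, with a median of 0.27, and 0 were called by limma (4 had an unadjusted p under 0.05). PTHLH, parathyroid hormone-like hormone, which delays the maturation of cartilage cells, had 13.04, 12.86 and 11.92 in males and 11.01, 11.73 and 11.03 in females (log2 fold change 1.35, adjusted p = 0.0568 with the CV filter, limma). Males and females did not overlap, and male 3 was the lowest male, as for NPPC. HTRA1, a secreted protease of matrix, was lower in males without overlap, by -0.33 on the log2 scale.

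**Figure D4:**
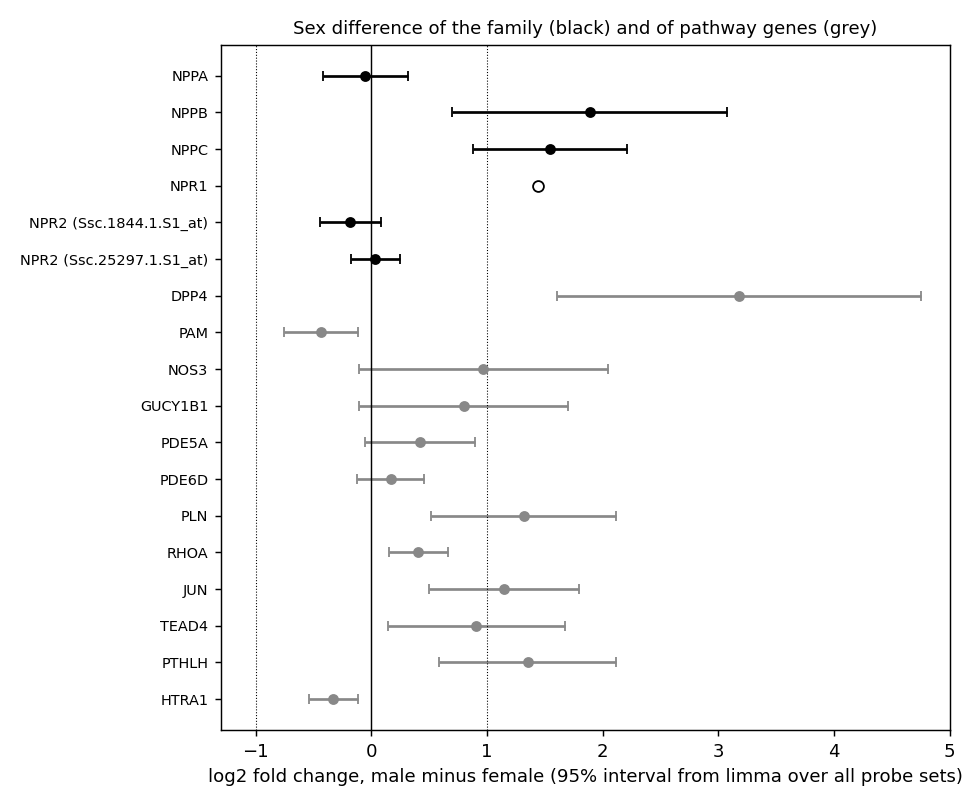
Log2 fold change, male minus female, with its 95% interval from limma over all probe sets, for the 6 member probe sets (black) and the 2 genes with the smallest p in each pathway list (grey), with dotted lines at a 2-fold change and NPR1 as an open circle without interval, since its name came from the list of differing probe sets. NPPB, NPPC and NPR1 lie to the right at 1.89, 1.54 and 1.44, and NPPA and NPR2 near 0.

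The genes whose values were most like those of NPPC, NPPB and NPR1 were sought among about 512 annotated genes with an SD of at least 0.5 over the 6 arrays, by Pearson's r over these 6 arrays. The sex difference itself raises each r, and 39 genes reached an r over 0.95 with NPPC, 8 with NPPB and 11 with NPR1. Most like NPPC were SQLE, an enzyme of cholesterol synthesis (r = 0.993), CALCRL, the receptor subunit for adrenomedullin and CGRP (0.988), PTHLH (0.987), the secreted glycoprotein gene STC1 (0.984) and ADAM15, a membrane metalloprotease (0.984). CALCRL and PTHLH also stand in the lists of endothelial markers and of partners of NPPC.

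Most like NPPB was AGT, the precursor of angiotensin (r = 0.991), with 6.40, 7.08 and 5.90 in males and 5.57, 5.68 and 5.37 in females. It had male 2 highest and male 3 lowest, as NPPB did, and was followed by the reticulon gene RTN1 (0.978), RRAD, a small GTPase (0.974), CELA2A of the elastase family (0.968) and the protease inhibitor SPINK5 (0.968). Most like NPR1 was NDP, a secreted ligand of Wnt receptors (r = 0.988), with 7.42, 7.36 and 7.69 in males and 6.23, 5.70 and 6.31 in females. LRRTM4, a synaptic adhesion protein (0.976), PLPPR5 (0.975), the peptidylarginine deiminase PADI2 (0.973) and the Popeye-domain gene POPDC3 (0.967) followed. No gene was among the 5 most alike for more than one of the 3.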

How the data were processed

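Leaflet RNA of each pig had been hybridized to 1 of 6 arrays. The authors deposited log2 values made with RMA (background correction, quantile normalization and summary of probes), per the labels in R 2.12.0. This step was not repeated here, as raw intensities were left aside, and no further normalization was applied. The number of arrays limits the precision. No sequences were used, and gene order in the pig genome served only to place NPPA beside NPPB.

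Probe sets were named from the array annotation (10069 probe sets with 1 gene, 198 with several) and, for members, from the study's list of 183 differing probe sets. R 4.3.3 with limma 3.58.1 gave the male minus female fits, by lmFit with eBayes and without covariates. The CV filter kept 2412 probe sets, 5 of them controls. The share of 10% is not stated in the methods and was taken from the number of probe sets behind their adjusted p-values. Single values were compared with an exact permutation test (smallest two-sided p 0.1 for 3 against 3). Each list gene, named by the annotation alone, was represented by its probe set of highest mean. Plots used Python 3.11.15 and matplotlib 3.10.9.

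The text names all member probe sets, pathway genes called in either comparison plus the 2 with the smallest p in each pathway list, the 5 genes most like NPPC, NPPB and NPR1, and per marker list the 3 with the smallest p and the defining markers measured. GATA4, GATA6, RGS5, CD163, the further KDR probe set and sarcomere genes of low level were added after their values were seen. The members and lists were chosen with earlier results of these data known. In 20 simulations of 23999 probe sets with 200 changed, a change of 1.5 on the log2 scale was called in 91.2% of cases with the CV filter and in 85.4% over all probe sets. False calls were 4.06% and 1.44% of calls. The changed probe sets were drawn at random, with noise independent between arrays. The SD among males was above that of 96.5% of probe sets for NPPC and 99.8% for NPPB, so these rates do not describe the members. The labels do not say whether replicate numbers pair animals of different sex. Alternatives were the CV filter with other shares, on linear values or within each sex, a call without a minimum fold, a filter on low values, an intensity trend, array weights, median centring, each array left out, a replicate block and other naming of probe sets.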

Additional observations from a re-analysis of the deposited data

How the results depend on the processing

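Counts in this part include NPR1, whose name came from the list of differing probe sets, and nothing is read from its calls. Without NPR1, the main counts were 2 with the CV filter and 0 over all probe sets. The 3 member probe sets called with the CV filter stayed 3 when it kept 5% or 25% of probe sets, used linear values, or the fit had array weights, median centring or no minimum fold. All these settings kept the probe sets with the highest CV, which favours those that differ. Calls over the series were 96 higher and 53 lower at 5%, 145 and 117 at 25%, and 145 and 101 with linear values, against 111 and 72 in the main fit. The member calls made with the CV filter were 2 with an intensity trend, without NPR1, and 0 when probe sets with a small CV within each sex were kept instead, because none of the 3 passed that filter. With each array left out the count ranged between 0 and 3. Over all probe sets, the count of 1, which was NPR1 itself, became 2 with array weights, which added NPPC. It became 0 with names of the annotation alone. With each array left out it ranged between 0 and 3, reaching 3 without male 3. Array weights raised the calls over all probe sets to 170 higher and 110 lower in males, against 40 and 33 without weights, and without male 3 they were 169 and 116; the cause was not tested. The estimate of the weights stopped before it reached its tolerance, and with it the fold of NPPB was 7.28 with the CV filter and 5.99 over all probe sets, against 3.70 without weights.

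The 1 pathway gene called with the CV filter became 2 at 5%, 2 at 25%, 4 with linear values, 2 with an intensity trend and 0 under the filter on CV within each sex, and ranged between 1 and 4 with each array left out. The 0 called over all probe sets ranged between 0 and 3, with 3 only without male 3. The log2 fold change of NPPA ranged between -0.16 and 0.10 with each array left out, above 0 without male 3 (0.01) and without female 1. NPR2 was not called in any setting in which it entered the fit. With the CV filter it entered only when probe sets with a small CV within each sex were kept.

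In fits with a replicate block, the CV filter again gave 3 called members and the comparison over all probe sets gave 1, which was NPR1. Calls over all probe sets were 103 higher and 101 lower in males. Animals with the same number deviated from their group means with correlations of -0.10, 0.01 and 0.27. Animals with different numbers had correlations between -0.22 and 0.21. With 3 animals of each sex, these values cannot decide whether the numbers pair animals, and the labels do not say. What limits these results is 3 animals of each sex, a list of differing probe sets as the only source of the name of NPR1, and levels of NPPA near the low end of each array.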

Other observations

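The cartilage matrix genes ACAN and COMP were lower in males. ACAN, the proteoglycan aggrecan, had 8.35, 9.61 and 9.93 in males and 11.51, 11.53 and 11.73 in females (log2 fold change -2.29, adjusted p = 0.00990 with the CV filter and 0.0691 over all probe sets, limma), and COMP, a cartilage matrix protein, differed by -1.85 (adjusted p = 0.0495 and 0.176). They were the 2 of 6 measured cartilage markers called with the CV filter (13 of the 6765 annotated genes were called lower). Both were lower in males and without overlap, and the list's median was -0.23. A second, lower probe set of each gene overlapped between the sexes, with differences of -0.13 for ACAN and -0.30 for COMP. For COL2A1 the study's list of differing probe sets names a further probe set, at -1.56, which the counts leave out. COL11A1, a fibrillar collagen of cartilage, differed by -0.26.

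Of 8 measured nerve markers 1 was called, NPY (neuropeptide Y), with 10.18, 10.52 and 9.07 in males and 6.11, 6.12 and 4.37 in females (log2 fold change 4.39, adjusted p = 0.0395 over all probe sets, limma), while GAP43 and S100B differed by -0.39 and -0.33. Of the 6765 annotated genes, 44 were called higher with the CV filter and 12 over all probe sets. The interstitial and fibroblast markers had a lower mean in males in 14 of 17 (median -0.29), with none called by limma in either comparison. At an unadjusted p under 0.05 in limma, 5 were lower and 1 higher. Among the 17, COL5A1 differed by -0.55 and DCN by -0.38, against 1.20 for S100A4, which other cell types also express. For DDR2 the study's list of differing probe sets names a probe set that the counts leave out, higher in males by 1.28 without overlap. Of the probe sets that represent the macrophage (10 measured, median 0.26) and smooth muscle markers (8 measured, median 0.07), 0 were called by limma and 0 had an unadjusted p under 0.05, although another probe set of CD163 was lower in males by -0.86 on the log2 scale (unadjusted p = 0.00943, adjusted p = 0.177, limma). Single markers stood at small differences, with SPI1 and PTPRC at 0.40 and 0.26 and CALD1, TAGLN and SMTN at 0.13, 0.17 and -0.13.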
